A study of Mus musculus with 6 samples.

Results

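Enzymes that break down monoamines and receptors of the autonomic nervous system were examined in the left ventricle of mouse hearts that received AAV9-Rbm24 or AAV9-GFP. The 8 genes were Maoa, Maob, Drd2, Adra1a, Adra1b, Adrb1, Adrb3 and Chrm2. They were chosen by name after earlier results of these arrays were known, among them the lower signals of Maob and Drd2, and the brightest transcript cluster of a gene was to be kept. A transcript cluster is a set of probes that the array summarises as 1 transcribed locus, which the annotation may give 1 symbol, several or none. The platform annotation gave 5 of the 8 genes (Maob, Maoa, Drd2, Adra1b and Chrm2) a cluster under their symbol alone, among 65956 clusters tested. Each of them had exactly 1 cluster, so that no choice by level arose. The cluster of Adra1a was named only in the gene table of the study, which lists genes that passed its thresholds on these same arrays, so its values are described here with no test. Adrb1 and Adrb3 were not analysed here.

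Wildtype C57/Bl6 males had received a single dose of 4000000000000 viral genomes into the peritoneum when they were 1 week old, and their hearts were taken 2 weeks afterwards. The tested virus carried a flag-tagged mouse Rbm24, which encodes an RNA-binding splicing factor (AAV9-Rbm24, n = 3 hearts). The control virus carried green fluorescent protein (AAV9-GFP, n = 3 hearts). Serotype 9 prefers cardiomyocytes, the Rbm24 cassette was driven by the CMV promoter, which is not specific to a cell type, and only part of the cardiomyocytes carried the transgene. Signals are log2 values, on which a step of 1 is a doubling. The Rbm24 cluster itself had 14.58, 14.74 and 15.12 in AAV9-Rbm24 hearts and 13.95, 13.63 and 13.57 in AAV9-GFP hearts, a log2 difference of 1.10 (adjusted p = 0.0607 from limma), without overlap and in the direction of the labels. Array medians lay between 5.49 and 5.67, and the array of AAV9-GFP replicate 2 stood apart from the others on the first principal component (score -64.34, against -9.74 to 41.35 for the other arrays).

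Monoamine oxidases sit in the outer mitochondrial membrane and oxidise norepinephrine, dopamine, serotonin and trace amines, which yields hydrogen peroxide as a by-product. Maoa and Maob encode the A and B forms, which differ in substrate preference, and lie next to each other on the X chromosome with no gene between them in RefSeq. In the heart, norepinephrine from sympathetic nerves acts on alpha and beta adrenergic receptors, and acetylcholine from the vagus acts on the muscarinic M2 receptor encoded by Chrm2. Alpha 1 receptors (Adra1a, Adra1b) couple to Gq, while the M2 receptor and the dopamine D2 receptor (Drd2) couple to Gi and restrain adenylyl cyclase.

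Of the 5 genes with a test, Maob was lower in AAV9-Rbm24 hearts at an adjusted p under 0.05, Drd2 was lower by the looser thresholds of the methods, and Maoa, Adra1b and Chrm2 passed neither. The methods' thresholds ask for a 1.5-fold change together with an unadjusted p under 0.05, and both were read here from the same limma fit. At the adjusted threshold 1 of the 5 genes was lower, where 0.0258% of all clusters were lower, and none was higher, where 0.241% of all clusters were (also none of the 5 at an unadjusted p under 0.05). By the methods' thresholds 2 of the 5 were lower, against 0.552% of all clusters, and none was higher, against 1.23%. In 2 of the 5 genes (Maob and Drd2) every AAV9-Rbm24 heart lay below every AAV9-GFP heart, as in 7.71% of all clusters, and in 1 (Maoa) every AAV9-Rbm24 heart lay above, as in 7.01%. Because the 5 genes were picked with these differences in view, the counts describe them and say nothing of monoamine or autonomic genes in general.

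**Figure D1:**
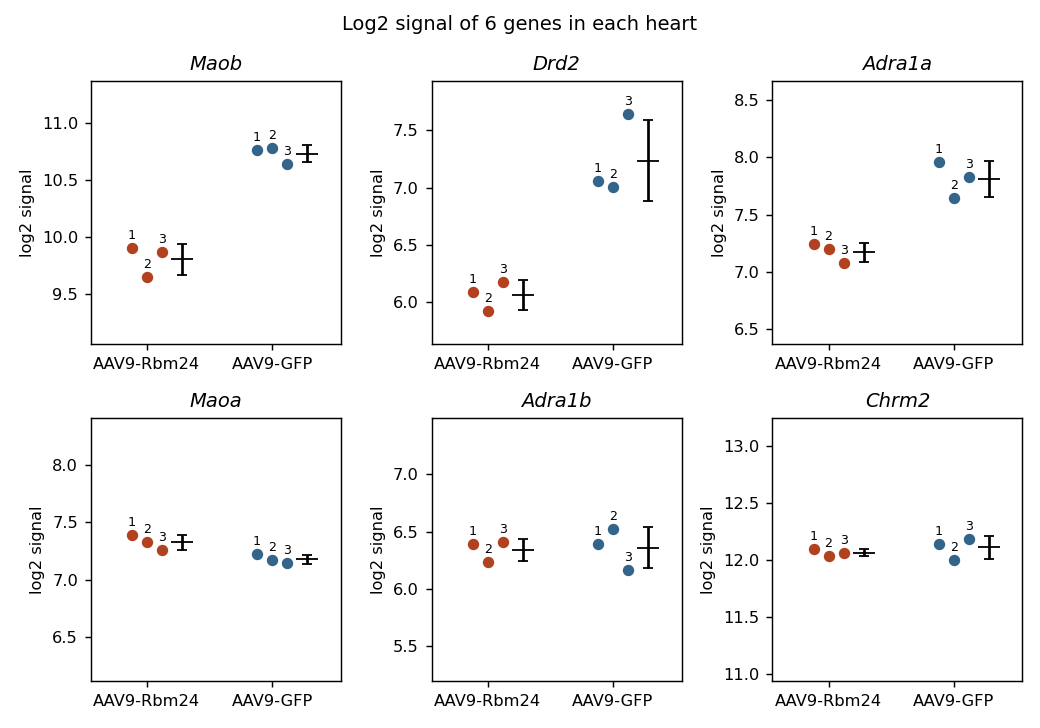
Log2 signal (vertical axis, equal span in each panel) of 6 genes in each heart, with AAV9-Rbm24 hearts in red on the left and AAV9-GFP hearts in blue on the right. Numbers give the replicate, and the bars beside the points give mean ± SD (n = 3 hearts). The groups are apart for Maob, Drd2 and Adra1a, narrowly apart the other way for Maoa, and overlap for Adra1b and Chrm2.

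Maob, which encodes monoamine oxidase B, had log2 signals of 9.90, 9.65 and 9.87 in AAV9-Rbm24 hearts and 10.76, 10.77 and 10.64 in AAV9-GFP hearts. All 3 AAV9-Rbm24 hearts were below 10 and all 3 AAV9-GFP hearts were above it. The means were 9.81 ± 0.14 in AAV9-Rbm24 hearts and 10.73 ± 0.07 in AAV9-GFP hearts (SD, n = 3 each). The log2 difference was -0.92 (standard error 0.11, 95% interval -1.17 to -0.67, adjusted p = 0.0265 from limma), so that the AAV9-Rbm24 signal was 52.9% of the AAV9-GFP signal. An exact two-sided permutation test over the 6 hearts gave p = 0.1, which is the smallest p that 3 hearts against 3 allow. The size of the difference held when single hearts were left out, between -0.97 and -0.84, but the call did not. The adjusted p from limma was 0.0852, 0.119 and 0.0665 on leaving out AAV9-Rbm24 replicate 1, 2 or 3, and 0.116, 0.135 and 0.0841 on leaving out AAV9-GFP replicate 1, 2 or 3. It was also above the threshold with the replicate number as a block (0.072) and in the methods' test (0.364). It ran between 0.0105 and 0.364 in the alternatives tried. No cluster of the whole table passed in the methods' test (smallest adjusted p 0.135) or in limma without AAV9-GFP replicate 2 (0.0766). With another heart left out, 0 to 4 clusters were lower at the adjusted threshold, against 17 with all 6 hearts. Higher clusters numbered 7 to 90 with another heart left out. With the replicate block 7 clusters were lower and 76 higher. Where no cluster passed, the loss of the call is thus not particular to Maob. In the settings where some clusters passed, Maob was not among them.

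Maoa, which encodes monoamine oxidase A, passed neither threshold. Its log2 signals were 7.39, 7.33 and 7.26 in AAV9-Rbm24 hearts and 7.22, 7.17 and 7.14 in AAV9-GFP hearts. The AAV9-Rbm24 hearts were thus slightly above, without overlap, by a log2 difference of 0.15 (standard error 0.09, 95% interval -0.07 to 0.37, adjusted p = 0.731 from limma). Since each array measured both genes, the change of one relative to the other can be read within a heart. The log2 signal of Maob exceeded that of Maoa by 2.52, 2.32 and 2.61 in AAV9-Rbm24 hearts and by 3.54, 3.61 and 3.50 in AAV9-GFP hearts. The mean distance fell by 1.07 in AAV9-Rbm24 hearts, and no AAV9-Rbm24 heart reached the lowest AAV9-GFP heart. Maob lay below and Maoa above without overlap, so this separation was already given by their single values. It also fixed p = 0.1 in the exact permutation test (two-sided, at its lower limit), which therefore adds nothing to them. The distance itself depends on the probes of each gene and does not give the proportion of the 2 enzymes.

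Drd2, which encodes the dopamine D2 receptor, had log2 signals of 6.09, 5.92 and 6.18 in AAV9-Rbm24 hearts and 7.06, 7.01 and 7.64 in AAV9-GFP hearts. AAV9-GFP replicate 3 was the highest of the 6, and without it the 2 groups still did not overlap. The means were 6.06 ± 0.13 in AAV9-Rbm24 hearts and 7.24 ± 0.35 in AAV9-GFP hearts (SD, n = 3 each). The log2 difference was -1.17 (standard error 0.18, 95% interval -1.59 to -0.76, adjusted p = 0.0607 from limma), which did not pass the adjusted threshold. Without AAV9-GFP replicate 3 the difference was -0.97 (adjusted p = 0.0841 from limma). It passed where fewer clusters were tested, with a minimum mean log2 signal of 6 (adjusted p = 0.0489 from limma) or with clusters of 1 symbol only (0.0305), and with array weights (0.0325), and the adjusted p ran between 0.0305 and 0.425 in the alternatives tried. The AAV9-Rbm24 signals were 0.37 to 0.67 above the median of their own arrays and lay inside the span of the 23 background control sets of the platform (2.64 to 6.89 on the AAV9-Rbm24 arrays and 2.67 to 7.44 on the AAV9-GFP arrays), as did that of AAV9-GFP replicate 1. How far these signals stood above background is therefore not known. Against the span on its own array, Adra1b also lay inside in 4 of the 6 hearts and Maoa in 1, AAV9-GFP replicate 1, while Maob, Adra1a and Chrm2 lay above in all 6. The other dopamine receptors on the array, Drd1, Drd3, Drd4 and Drd5, had log2 differences of 0.08, 0.08, -0.01 and -0.05 (adjusted p from 0.926 to 0.991 in limma), with overlapping groups, and the trace amine receptor Taar1 had one of 0.04 (adjusted p = 0.970 from limma). These receptors had signals of 4.62 to 6.10, inside the control span of their own arrays. How far they stood above background is therefore not known either.

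**Figure D2:**
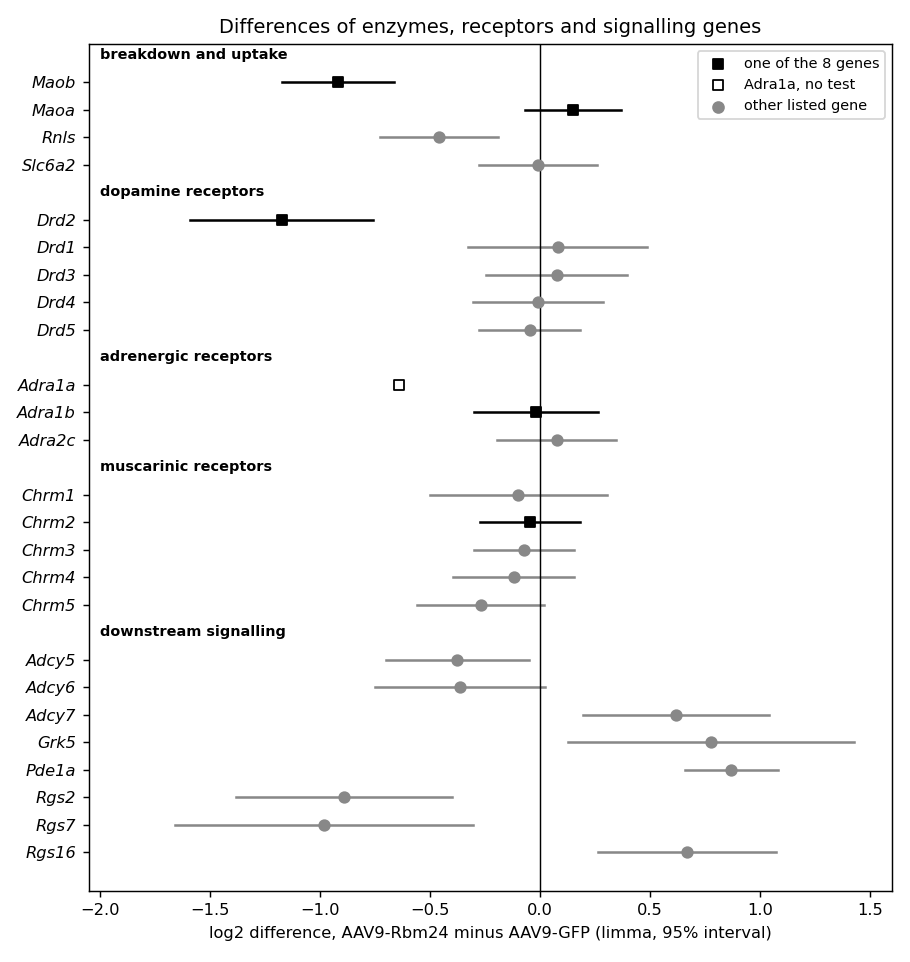
Log2 difference between AAV9-Rbm24 and AAV9-GFP hearts (horizontal axis) with its 95% interval from limma, for the genes named on the vertical axis. Squares are 6 of the 8 genes and circles are other listed genes, and the open square marks Adra1a, for which no interval is drawn. Maob (-0.92) and Drd2 (-1.17) lie left of 0 while Maoa, Adra1b and Chrm2 lie near it, and of the circles Pde1a (0.87) lies farthest to the right.

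Adra1a, the alpha 1A adrenergic receptor, had log2 signals of 7.24, 7.20 and 7.08 in AAV9-Rbm24 hearts and 7.96, 7.65 and 7.83 in AAV9-GFP hearts. The means were 7.17 ± 0.09 in AAV9-Rbm24 hearts and 7.81 ± 0.16 in AAV9-GFP hearts (SD, n = 3 each). Every AAV9-Rbm24 heart was below every AAV9-GFP heart, with a log2 difference of -0.64, which ran from -0.73 to -0.57 with single hearts left out. No p is given, since the name of this cluster came from a table of genes that had passed in these hearts. Adra1b, the alpha 1B receptor, had 6.39, 6.23 and 6.41 in AAV9-Rbm24 hearts and 6.39, 6.52 and 6.17 in AAV9-GFP hearts. Its groups overlapped, and the log2 difference was -0.02 (standard error 0.12, 95% interval -0.30 to 0.27, adjusted p = 0.986 from limma). Its sign changed in some of the alternatives. The only other adrenergic receptor measured here, the alpha 2C receptor Adra2c, had a log2 difference of 0.08 (adjusted p = 0.911 from limma) at signals of 3.62 to 3.93, below every array median.

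Chrm2, the M2 receptor through which the vagus slows the heart, had log2 signals of 12.10, 12.04 and 12.06 in AAV9-Rbm24 hearts and 12.14, 12.00 and 12.19 in AAV9-GFP hearts. All 6 values lay between 12.00 and 12.19, and the groups overlapped. The log2 difference was -0.04 (standard error 0.10, 95% interval -0.27 to 0.18, adjusted p = 0.943 from limma), an interval that leaves room for a change of up to 0.27 on the log2 scale. The other muscarinic receptors Chrm1, Chrm3, Chrm4 and Chrm5 had log2 differences of -0.10, -0.07, -0.12 and -0.27 (adjusted p from 0.624 to 0.924 in limma). For Chrm5 every AAV9-Rbm24 heart was below every AAV9-GFP heart, at signals of 3.90 to 4.47, which are below the array medians.

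The genes also differed in how closely replicate hearts agreed. The standard deviation within groups was 0.05 for Maoa, 0.07 for Chrm2, 0.11 for Maob, 0.13 for Adra1a, 0.14 for Adra1b and 0.27 for Drd2, where the median over all clusters was 0.16. Drd2 alone was more variable than the median cluster. AAV9-GFP replicate 2, the array that stood apart, was the highest AAV9-GFP heart for Maob and Adra1b and the lowest for Drd2, Adra1a and Chrm2. Without it the log2 difference was -0.90 for Maob and -1.29 for Drd2.

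The reference sequence upstream of Drd2 and of Maoa is shown for the receptor gene that passed the methods' thresholds and for the oxidase that passed none. The RefSeq promoter table (GRCm38.p6) matched 4 of the 6 measured genes, Maoa, Drd2, Adra1b and Chrm2, and not Maob or Adra1a. Each line gives the 250 bases before the annotated start, 5′ to 3′, with capitals on the GC box GGGCGG or its reverse complement CCGCCC, a motif that Sp1 and related zinc finger factors can bind. The Drd2 window is chr9:49340153-49340402 and the Maoa window chrX:16619448-16619697, both on the plus strand.
Drd2: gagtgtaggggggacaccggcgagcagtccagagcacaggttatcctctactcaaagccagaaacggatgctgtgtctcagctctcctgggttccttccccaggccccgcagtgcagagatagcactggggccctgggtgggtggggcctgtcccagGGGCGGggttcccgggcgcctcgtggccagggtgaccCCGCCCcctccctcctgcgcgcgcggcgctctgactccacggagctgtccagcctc
Maoa: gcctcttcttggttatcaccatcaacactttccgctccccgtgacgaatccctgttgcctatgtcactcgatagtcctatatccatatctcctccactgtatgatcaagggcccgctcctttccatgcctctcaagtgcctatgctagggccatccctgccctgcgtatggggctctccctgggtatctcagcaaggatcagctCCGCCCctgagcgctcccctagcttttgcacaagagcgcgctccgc
The Drd2 window held 2 GC boxes and the Maoa window 1, with a GC content of 68.8% and 56.8%. Of 32851 promoter windows of the same length, 32.7% held at least 1 GC box on either strand. The letters TATAAA, or TTTATA on the other strand, were in neither window, and 12.4% of all windows held them. The windows of Chrm2 and of 1 of the 2 Adra1b starts held 1 GC box each.

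Other genes of the same pathways were taken from 14 lists with 133 genes besides the 8, of which 121 had a cluster under their own symbol. Of the 121, 1 was higher at an adjusted p under 0.05 in limma (0.241% of all clusters were) and none was lower (0.0258% were). At an unadjusted p under 0.05, 12 of the 121 were higher and 10 lower, where 4.08% of all clusters were higher and 4.33% lower. By the methods' thresholds 4 were higher (3.31%, against 1.23% of all clusters) and 2 lower (1.65%, against 0.552%). Every AAV9-Rbm24 heart lay above every AAV9-GFP heart in 20 of the 121 (16.5%, against 7.01% of all clusters). Every one lay below in 16 (13.2%, against 7.71%). The median log2 difference of the 121 genes was -0.02 and that of all clusters -0.03. No gene for monoamine synthesis (of 7), transport and storage (of 7) or further breakdown (of 7), no serotonin receptor (of 14), no gene for acetylcholine handling (of 5), no G protein (of 10) and no subunit or anchor of protein kinase A (of 15) passed either threshold in limma.

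Among the transport and synthesis genes, the norepinephrine transporter Slc6a2 had a log2 difference of -0.01 (adjusted p = 0.991 from limma). Tyrosine hydroxylase Th, the first enzyme of catecholamine synthesis, had one of 0.00 (adjusted p = 0.998 from limma). Both clusters were dim, with signals of 4.70 to 5.07 on every array, below the array medians. The supply of norepinephrine and the nerves themselves were not measured. The decarboxylase Ddc had 7.57, 7.09 and 7.30 in AAV9-Rbm24 hearts and 7.72, 7.71 and 7.94 in AAV9-GFP hearts, a log2 difference of -0.47 (adjusted p = 0.382 from limma). The flavoenzyme gene Rnls (renalase) had 7.65, 7.71 and 7.81 in AAV9-Rbm24 hearts and 8.34, 8.02 and 8.20 in AAV9-GFP hearts, a log2 difference of -0.46 (adjusted p = 0.252 from limma). In both genes the AAV9-Rbm24 hearts lay below without overlap, as in 7.71% of all clusters. Akr1a1, like Rnls a gene of the breakdown list, lay above without overlap (log2 difference 0.25, adjusted p = 0.610 from limma), as in 7.01% of all clusters. Butyrylcholinesterase, Bche, had a log2 difference of -0.37 (adjusted p = 0.529 from limma). Ddc, Rnls, Akr1a1, Bche, Th and Dbh, and the single marker genes named with the cell type lists, were singled out after their values were seen.

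Downstream of the receptors, the gene that passed the adjusted threshold was Pde1a, a phosphodiesterase that calcium and calmodulin activate and that degrades cyclic nucleotides. Its log2 signals were 7.99, 8.02 and 8.06 in AAV9-Rbm24 hearts and 7.15, 7.13 and 7.19 in AAV9-GFP hearts. Each AAV9-Rbm24 heart was above each AAV9-GFP heart, by a mean log2 difference of 0.87 (limma, adjusted p = 0.0217, standard error 0.09). The call ended with each heart left out in turn, at adjusted p from 0.0609 (without AAV9-Rbm24 replicate 3) to 0.105 (without AAV9-Rbm24 replicate 2) in limma, while the difference stayed between 0.85 and 0.89. It also ended with the replicate block (0.0585) and in the methods' test (0.135). Over all alternatives the adjusted p ran between 0.0076 and 0.135. In the methods' test 0.135 was the smallest adjusted p of any cluster, so that no gene could be called there. Nor was any cluster called in limma without AAV9-GFP replicate 2. On leaving out another heart, 7 to 90 clusters were still higher at the adjusted threshold, and 76 were with the replicate block. Pde1a was not among them, so in those settings the loss of its call was not shared by every cluster. Of the other 16 phosphodiesterase genes, none passed either threshold. Of all 17, with Pde1a, 5 were higher and 4 lower in every AAV9-Rbm24 heart (7.01% and 7.71% of all clusters). Among the lower were Pde7b (log2 difference -0.57, adjusted p = 0.257 from limma) and Pde1c (-0.50, adjusted p = 0.440), both singled out after their values were seen.

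Of 13 RGS genes, 2 were lower and 1 higher by the methods' thresholds (0.552% and 1.23% of all clusters), and none passed the adjusted one. RGS proteins speed the return of G proteins to their inactive state. Rgs2, which acts on Gq, had 9.77, 9.34 and 9.74 in AAV9-Rbm24 hearts and 10.17, 10.41 and 10.94 in AAV9-GFP hearts, a log2 difference of -0.89 (adjusted p = 0.223 from limma). Rgs7 had 7.43, 7.26 and 7.07 in AAV9-Rbm24 hearts and 8.87, 8.26 and 7.58 in AAV9-GFP hearts. Its log2 difference was -0.98 (adjusted p = 0.364 from limma), or -0.66 without AAV9-GFP replicate 1, and it did not pass in the methods' own test. Rgs16 was above in every AAV9-Rbm24 heart, with a log2 difference of 0.67 (adjusted p = 0.276 from limma), which was 0.47 without AAV9-Rbm24 replicate 3 and then missed the fold of 1.5. The other 10 RGS genes passed neither threshold.

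The receptor kinase Grk5, which phosphorylates activated G protein coupled receptors, had 9.81, 9.83 and 10.86 in AAV9-Rbm24 hearts and 9.45, 9.15 and 9.57 in AAV9-GFP hearts. The log2 difference was 0.78 (adjusted p = 0.488 from limma), and it missed the methods' thresholds if either AAV9-Rbm24 replicate 3 (0.43) or AAV9-GFP replicate 2 (0.66) was left out, with array weights (0.56) and in the methods' own test. Adcy7, an adenylyl cyclase that is abundant in blood cells, differed by 0.62 on the log2 scale (limma, adjusted p = 0.359), and it missed them when the same 2 arrays were left out (0.41 and 0.57) and with array weights (0.49). The other 5 receptor kinases and arrestins and the other 9 cyclases passed neither threshold. The main cyclases of cardiomyocytes, Adcy5 and Adcy6, had log2 differences of -0.38 and -0.36 (adjusted p = 0.505 and 0.623 from limma), with overlapping groups.

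**Figure D3:**
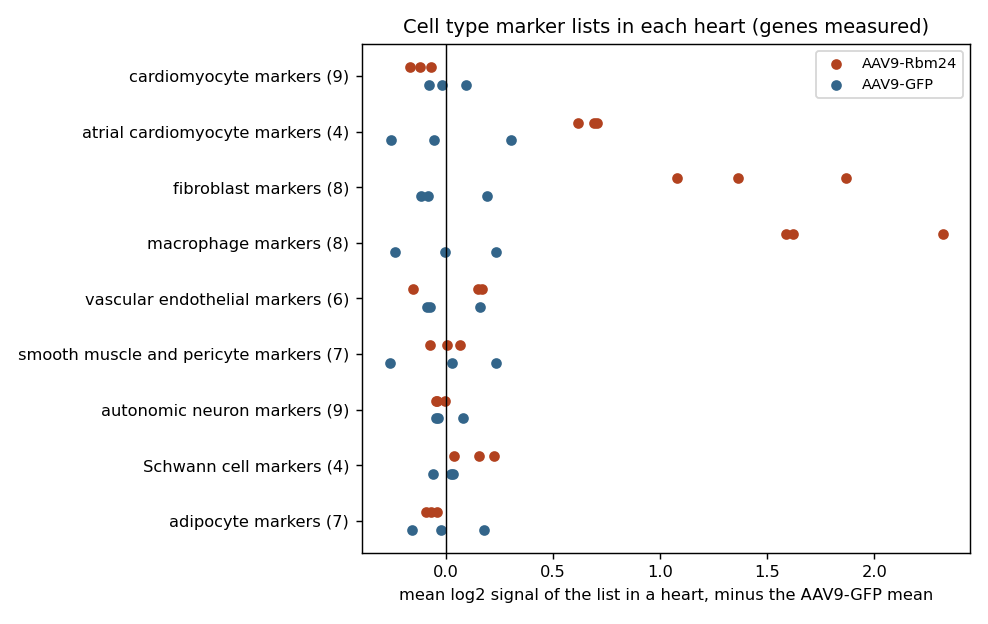
Mean log2 signal of each cell type marker list in each heart, less the mean of the 3 AAV9-GFP hearts (horizontal axis), with AAV9-Rbm24 hearts in red above and AAV9-GFP hearts in blue below, and the number of genes measured in brackets. Macrophage and fibroblast lists are shifted to the right in all 3 AAV9-Rbm24 hearts, as is the atrial list through Nppa. The Schwann cell list lies at 0.04 to 0.23 in AAV9-Rbm24 hearts and at most at 0.03 in AAV9-GFP hearts, with Cdh19 highest (log2 difference 0.55). The cardiomyocyte and neuron lists lie between -0.17 and 0.10 in every heart.

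The ventricle is a mixture of cells, and in such tissue fewer cells of a type and less RNA per cell cannot be told apart. Of 9 cardiomyocyte markers, none passed either threshold, with a median log2 difference of -0.06. In 2 of the 9 every AAV9-Rbm24 heart was below every AAV9-GFP heart, as in 7.71% of all clusters. In none was every AAV9-Rbm24 heart above, as in 7.01% of all clusters. The lower markers were the calcium release channel Ryr2 (log2 difference -0.36, adjusted p = 0.510 from limma) and troponin I, Tnni3 (-0.20, adjusted p = 0.648). Ckm, the muscle creatine kinase, had -0.32 with overlapping groups (adjusted p = 0.646 from limma). The summed linear signal of all 9 was 2812000 to 2906000 in AAV9-Rbm24 hearts and 2854000 to 3004000 in AAV9-GFP hearts, but the brightest of them lay near the ceiling of the arrays, where changes are compressed. Of 8 fibroblast markers 3 were higher at the adjusted threshold (0.241% of all clusters were) and 7 by the methods' thresholds (1.23% were). The marker that passed neither was Tcf21, with overlapping groups (log2 difference -0.03, adjusted p = 0.979 from limma). The summed fibroblast signal was 151000 to 182100 in AAV9-Rbm24 hearts and 77320 to 87120 in AAV9-GFP hearts. Of 8 macrophage markers 4 were higher at the adjusted threshold and all 8 by the methods' thresholds, against the same shares of all clusters. Their summed signal was 35400 to 85390 in AAV9-Rbm24 hearts and 5796 to 10490 in AAV9-GFP hearts. The brightest gene of each list weighs most in these sums. These were Dcn (mean log2 signal 16.69 in AAV9-Rbm24 and 16.01 in AAV9-GFP hearts) and Lyz2 (15.11 and 11.58). The part of the fibroblast and macrophage shifts in the lower Maob, Drd2 and Adra1a and the higher Pde1a was not tested.

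Of 9 autonomic neuron markers none passed either threshold, with a median log2 difference of 0.02 and a summed signal of 518 to 542 in AAV9-Rbm24 hearts and 519 to 555 in AAV9-GFP hearts. Th, Dbh and Chat, which define these neurons, were below the array median in every heart. In 2 of the 9, Dbh and Stmn2, every AAV9-Rbm24 heart was below every AAV9-GFP heart, as in 7.71% of all clusters. For Dbh, which converts dopamine to norepinephrine, the log2 difference was -0.38 (adjusted p = 0.453 from limma). Vascular endothelial (of 6), smooth muscle and pericyte (of 7), Schwann cell (of 4) and adipocyte (of 7) markers passed neither threshold in any gene. Of 4 atrial markers, Nppa, which ventricles also express under load, was higher by the methods' thresholds (log2 difference 2.76, adjusted p = 0.149 from limma), while Myl4, Myl7 and Sln differed by 0.04, -0.08 and -0.03.

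The profiles most like those of Maob and Drd2 over the 6 arrays were sought among 10709 genes whose mean log2 signal reached 6, by the root mean square difference of the mean-centred signals. Nearest to Maob were the N-acyl amino acid enzyme Pm20d1 (0.10), the arsenic methyltransferase As3mt (0.12), the ubiquitin ligase subunit Asb2 (0.13) and the kinetochore gene Cenpf (0.14). Nearest to Drd2 were the scaffold gene Whrn (0.15), the phosphatase Dusp18 (0.15), Rgs2 (0.18) and the orphan receptor Gpr22 (0.18). All 8 were lower in AAV9-Rbm24 hearts, by log2 differences of -1.10 to -0.73, which the search fixes, since likeness to a lower gene requires it. Of these, As3mt passed the adjusted threshold (adjusted p = 0.0295 from limma). With 2 groups of 3 hearts such likeness describes mainly the difference between the groups.

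**Figure D4:**
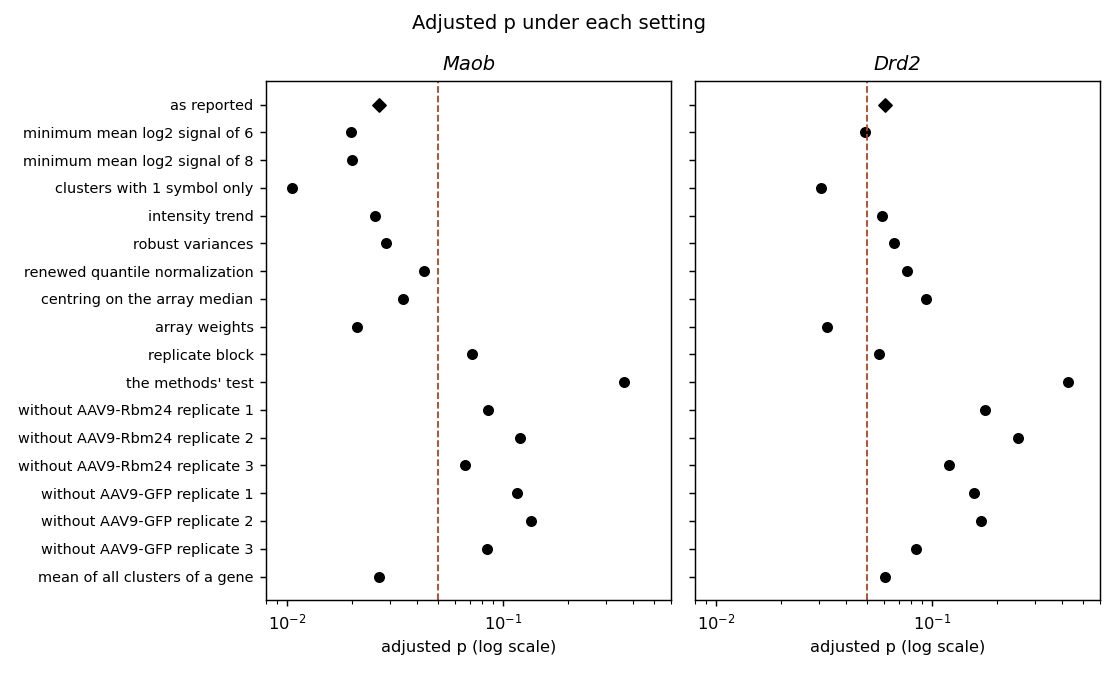
Adjusted p on a log axis (horizontal) for Maob and Drd2 under each setting of the analysis (vertical), with the reported value as a diamond and the threshold of 0.05 as a dashed line. Maob lies left of the line except with the replicate block, the methods' test and each heart left out, and Drd2 lies right of it except in 3 settings.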

How the data were processed

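Left ventricular RNA of 6 hearts was measured with 1 Affymetrix Mouse Transcriptome Array 1.0 per heart. The authors deposited log2 signals, which the submitters' processing notes trace to RMA in Affymetrix Expression Console, versions and genome build not given in the sources used here. Groups came from the sample titles. Of 72688 rows, 6732 controls were left out, and 65956 clusters were fitted without a filter using limma 3.58.1 in R 4.3.3 (lmFit, eBayes), with Benjamini-Hochberg adjustment over all clusters. Names came from the platform annotation, updated through RefSeq (30638 clusters with 1 symbol), and 2176 clusters with several symbols named no gene. Replicates were hearts of separate mice, and 3 per group limit the precision. The genes and lists were chosen with earlier results of these data known. Named by rule were the 8 genes, at most 6 genes per list past a threshold, genes whose role pairs with one of the 8, and the 4 nearest profiles of Maob and of Drd2. Marker lists covered 9 cell types. Alternatives were filters at 6 and 8, single symbols, variance models, scaling, array weights, replicate block, the methods' test, left-out hearts and cluster averages. The procedure was tested on simulated data.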

Additional observations from a re-analysis of the deposited data

How the results depend on the processing

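Among the 5 genes with a test, the 1 call at the adjusted threshold (Maob) became 2 (Maob and Drd2) with a minimum mean log2 signal of 6, with clusters of 1 symbol only and with array weights. It became 0 with the replicate block, in the methods' test and with each heart left out (range 0 to 0). In the methods' test and without AAV9-GFP replicate 2 no cluster of the whole table passed, so a count of 0 there holds for any set of genes. The count by the methods' thresholds was 2 and became 1 with a minimum of 8, where Drd2 is no longer tested, and stayed at 2 with each heart left out (range 2 to 2). Among the other pathway genes, the 1 call (Pde1a) became 0 with a minimum of 8, where Pde1a is not tested, with the replicate block, in the methods' test and with each heart left out (range 0 to 0), and the 6 genes past the methods' thresholds became 2 with a minimum of 8, 4 in the methods' test and 4 to 8 with hearts left out. The sign of Adra1b turned after centring on the array median (0.00702), with array weights (0.00742), on leaving out AAV9-Rbm24 replicate 2 (0.0371) or AAV9-GFP replicate 2 (0.0624), in a range of -0.115 to 0.0624 over left-out hearts, and the cause was not tested. Maob, Drd2, Maoa, Chrm2 and Adra1a kept their direction in every alternative run. For Maob, Drd2, Maoa and Adra1a, whose groups did not overlap, leaving out a heart could not have turned it. Chrm2 kept it at only -0.00655 without AAV9-GFP replicate 3. With the replicate block the difference of Maob was again -0.92, which the design fixes, since each group holds 1 heart of each replicate number. Deviations of same-numbered hearts correlated at 0.0267, 0.0963 and 0.152 over clusters, and not every heart correlated best with its own number, so the numbers were not taken to pair the hearts. RMA signals near the array median limit what can be seen of Drd2, Adra1b and the dim receptors.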
